A study of Mus musculus with 120 samples.

Results

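Genes for the nuclear-encoded machinery of oxidative phosphorylation were followed by ribosome profiling in mouse embryonic fibroblasts (MEFs) under stress of the endoplasmic reticulum (ER). They were chosen by symbol, as every gene whose symbol starts with Nduf, Uqcr or Atp5 or with Cox4, Cox5, Cox6, Cox7 or Cox8, together with Sdha, Sdhb, Sdhc, Sdhd and Cyc1. This gave 93 of the 22417 genes in the deposited tables. Of these, 36 belong to complex I, 4 to complex II, 9 to complex III, 20 to complex IV and 15 to complex V. The last 9 are the 7 complex I assembly factors Ndufaf1 to Ndufaf7 and a pair of genes named after ATP synthase that are not classical subunits, Atp5s and Atp5sl.

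Oxidative phosphorylation makes ATP in the inner mitochondrial membrane: complexes I to IV pass electrons to oxygen and pump protons, and complex V, the ATP synthase, uses the proton gradient. A small set of subunits is encoded by mitochondrial DNA, while all genes described here are nuclear, are translated on cytosolic ribosomes and send their products into mitochondria. When proteins misfold in the ER, the kinase PERK phosphorylates the initiation factor eIF2α, which lowers translation initiation in general and favours the mRNA of the transcription factor ATF4.

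MEFs of 3 genotypes were compared: cells labelled ATF4-/-, cells whose eIF2α carries the S51A substitution at the residue PERK phosphorylates, and wild-type (WT) C57BL/6 cells. Cells of each genotype were left untreated (0 h) or exposed for 0.5, 1, 2 or 4 h to thapsigargin, a blocker of the ER calcium pump, at a concentration of 1 µM. An ER fraction (released with the detergent DDM) and a cytosol fraction (released with digitonin) were taken from the same cells, and each gave ribosome footprint and mRNA libraries. The labels list 120 samples in 60 groups of 2 and do not say that a group's libraries came from separate cultures. The p-values therefore cover no more than spread within pairs of samples, and that spread may be technical. For each gene it was estimated jointly over the pairs of all groups in a fit, so it is not that of the compared pairs alone. Each genotype is its own cell line and set of libraries, so genotype and line cannot be told apart. In bulk libraries, fewer cells and less RNA per cell cannot be told apart, and levels in RPKM (reads scaled to coding length and by a factor of the authors for each library) are relative, so a fall of all translation would not show in them.

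Sequences upstream of the members' start sites were examined first, because the genes share no single transcription unit but are known to share promoter elements. Nuclear respiratory factor 1 (NRF-1) is a transcription factor known for sites in promoters of respiratory chain genes. Its palindromic site of 10 letters, the run in capitals in each line below, was searched on both strands from 250 bases before to 50 after the gene start in RefSeq (GRCm38.p6). It occurred in 7 of 76 matched members, 9.21%, and in 283 of 26949 other genes, 1.05%. The 3 members below hold it upstream of the start in both RefSeq and GENCODE (GRCm38), and capitals mark the match.
Ndufa11 (complex I, chr17:56717692-56717721, plus strand): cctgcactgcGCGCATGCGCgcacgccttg
Ndufaf4 (complex I assembly, chr4:24897960-24897989, plus strand): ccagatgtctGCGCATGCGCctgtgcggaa
Cox6a1 (complex IV, chr5:115349101-115349130, minus strand): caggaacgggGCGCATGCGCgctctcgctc
The match begins 60, 113 and 162 bases before the RefSeq start of Ndufa11, Ndufaf4 and Cox6a1, and 65, 113 and 139 bases before the GENCODE start. In the other 4 members, Atp5g2, Atp5k, Ndufaf5 and Uqcrc1, the match overlaps the transcript in at least 1 of these annotations.

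The other motifs searched in the same windows were CCGGAAGT, the letters of an ETS site, in 6.58% of members and 4.30% of other genes, and AAGATGGC, the letters of a YY1 site, in 14.5% and 3.16%. TATAAA, the letters of a TATA box, was found in 9.21% of members and 15.7% of other genes. No searched motif contains another, but whether their matches overlap was not examined, and a match is a description of these windows only. Around the start codon, a purine stood at position -3 in 89 of 93 members, 95.7%, and in 85.2% of 18500 other genes. A G stood at position +4 in 51.6% of members and 49.9% of other genes.

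Footprint libraries held 2023221 to 8708142 reads in cells labelled ATF4-/-, 6229076 to 15167088 in S51A and 298952 to 11094756 in WT. The shallowest library was the WT cytosol library b of 0.5 h, where each pair is named a and b and 1 read adds more RPKM in b. Atf4, the gene the ATF4-/- label refers to, was read in those cells, with a deposited total of 362 RPKM at 4 h, against 11.5 RPKM untreated. The total at 4 h was 65.7 RPKM in S51A, against 44.6 RPKM untreated, and 1371 RPKM in WT, against 132 RPKM. Of 11 fibroblast markers, 9 were at 1 RPKM or more untreated in cells labelled ATF4-/-, 10 in S51A and 11 in WT. Of 8 muscle markers, 2 reached that level in each genotype, led by Acta1, and Myod1 in cells labelled ATF4-/-, Myog in S51A and 6 of the 8 in WT were at 0 at all times. Summed muscle markers ranged over time from 830 to 1329 RPKM in cells labelled ATF4-/-, 1541 to 2204 in S51A and 237 to 878 in WT, beside summed fibroblast markers of 7989 to 21525, 8149 to 11520 and 4456 to 16974 RPKM. Of 5 epithelial markers 2, 1 and 1 reached 1 RPKM, with sums of 47.2 to 58.6, 20.8 to 25.8 and 3.59 to 10.7 RPKM in the same order, and of 5 immune markers 1, 1 and 2, with sums of 6.90 to 15.2, 8.02 to 16.7 and 10.2 to 17.9 RPKM. Untreated Acta1 alone was at 1316, 2184 and 648 RPKM in that order. Whether muscle, epithelial or immune cells were present, and what part they would have in the results, was not tested.

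Untreated cells translated nearly all of the structural subunits at high level. In cells labelled ATF4-/- 89 of the 93 members had footprints, with a median of 228 RPKM against 5.89 RPKM over all genes with footprints. In S51A 89 members had a median of 210 RPKM, against 7.63 RPKM over all genes, and in WT 86 members had a median of 185 RPKM, against 13.1 RPKM. Their summed level was 2.61%, 2.87% and 2.45% of all deposited levels in cells labelled ATF4-/-, S51A and WT. RPKM is scaled to coding length, but whether these levels are otherwise comparable between genes was not tested. Levels of members that share sequence with other genes are uncertain, as set out below.

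The highest members differed between the genotypes. In cells labelled ATF4-/- the highest members were Atp5b, the catalytic β subunit of ATP synthase, at 1624 RPKM and Ndufa4, a subunit now placed in complex IV, at 1410 RPKM. In S51A they were Cox7c at 1783 RPKM and Ndufa4 at 1387 RPKM. In WT they were Ndufa4 at 1474, Cox6b1 at 1204 and Atp5j, a peripheral stalk subunit, at 1053 RPKM. The lowest members with footprints in WT were Ndufa4l2 at 5.09, Atp5sl at 8.30 and the assembly factors Ndufaf7, Ndufaf3 and Ndufaf6 at 13.6, 14.1 and 14.8 RPKM.

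**Figure D1:**
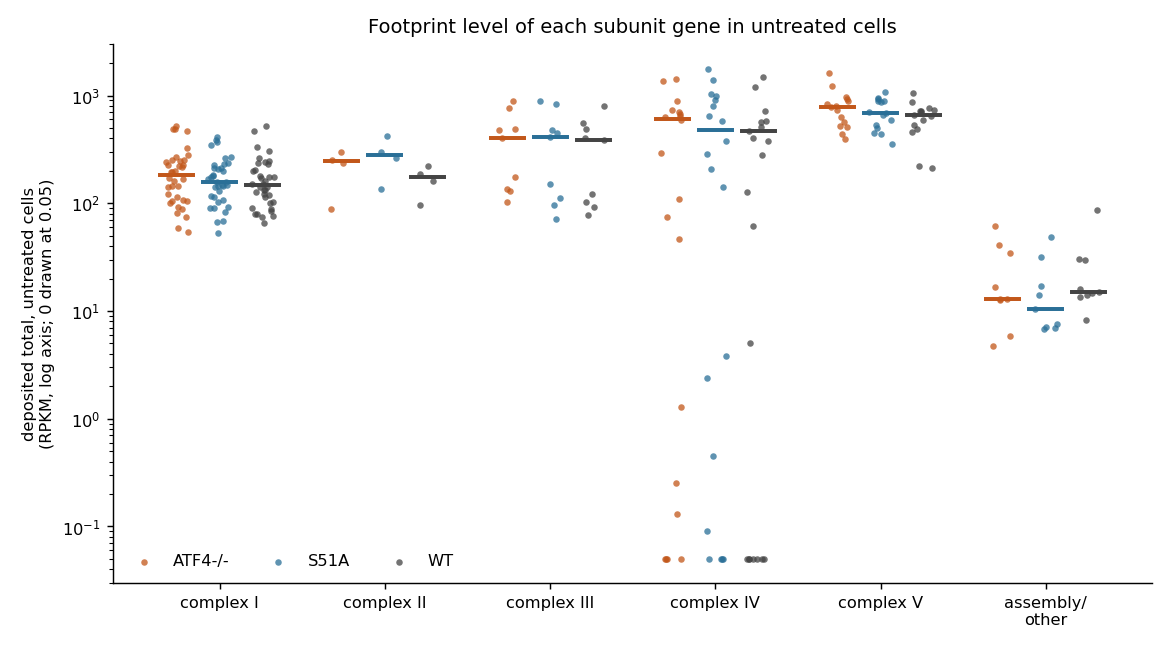
Deposited total footprint level of each member in untreated cells (RPKM, log axis, members at 0 drawn at 0.05) by complex, with cells labelled ATF4-/-, S51A and WT from left to right; bars are medians of the members with footprints. The medians of all members with footprints are 228, 210 and 185 RPKM, and the assembly factors and the tissue isoforms of complex IV lie at the low end.

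Members with paralogs used the broadly expressed form. The ubiquitous Cox4i1 was at 677, 650 and 713 RPKM in cells labelled ATF4-/-, S51A and WT, and its lung and hypoxia form Cox4i2 at 0.129, 0.0915 and 0 RPKM. Cox7a2 was at 737, 1033 and 401 RPKM in that order, and the heart and muscle form Cox7a1 at 1.27, 0.452 and 0 RPKM. Cox6a2, Cox8b and Cox8c, isoforms of muscle or testis, were listed at 0 in all 3 genotypes, and Cox6a1 was at 111, 208 and 129 RPKM. The 3 genes for the identical mature c subunit of the ATP synthase rotor were all read: Atp5g1 at 843, 451 and 213 RPKM, Atp5g2 at 438, 356 and 220 RPKM and Atp5g3 at 934, 683 and 455 RPKM. Ndufa4l2, a paralog of Ndufa4 induced in hypoxia, was at 46.5, 3.86 and 5.09 RPKM. Cox7a2l, which builds respiratory supercomplexes, was at 73.9, 141 and 61.5 RPKM.

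Several of these values rest on sequence that is not unique. Of the 93 members, 56 share at least 1 run of 28 or more coding bases with transcripts of other annotated genes, most of them pseudogenes, and in 33 members such runs cover over 50% of the coding sequence. They cover 100% of Cox7c and Atp5g1, 83.3% of Ndufb3, 82.7% of Atp5f1, 75.9% of Ndufs6, 74.5% of Uqcrh and 58.2% of Cox7a2, but none of Ndufs8 and Sdhc. No source used here says how reads that fit several genes were counted, so levels of the genes with shared sequence are uncertain.

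Thapsigargin shifted the members in both directions in WT cells, within a wide change of the footprints of all genes. A log2 change below is the mean over ER and cytosol libraries of log2(RPKM + 1), treated minus untreated, with its standard error, tested with limma and Benjamini-Hochberg adjustment over all genes with at least 20 predicted reads in each compared library; a gene counts as changed at an adjusted p under 0.05. Of the 93 members 86 passed the filter on low values. At 0.5 h in WT, 60 members could be tested, 5 rose and 21 fell, beside 48.9% of all 2495 genes tested that changed, 18.5% upward and 30.4% downward. The members' median change was -0.30 and that of all genes tested -0.13, so the share of members that changed was near the background. With another scaling (TMM-type) the median of all genes moved by 0.18 and 12 members rose and 14 fell. Without the 3 WT footprint libraries under 500000 reads, 4 rose and 16 fell of 82 tested.

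Complex V and complex I held most of the members that fell at 0.5 h in WT. Of the 15 complex V members none rose and 6 fell, with a median change of -0.45, and of 22 complex I members tested 1 rose and 11 fell, with a median of -0.42. Complex II had 1 higher and 1 lower of 4, complex III 1 and 1 of 9, and complex IV 2 and 2 of 10, with a median of 0.43. None of the 9 assembly genes reached the depth for a test. Contrasts at 0.5, 1, 2 and 4 h share the untreated libraries of their genotype, so their values below stand side by side and are not independent. The deposited levels also carry the size of a fraction. Summed over all genes recovered, WT ER libraries held 316020 and 314232 RPKM at 0.5 h, against 381389 and 402728 RPKM untreated, and WT cytosol libraries 677059 and 634306 RPKM, against 529874 and 522336 RPKM. Values of a single fraction below therefore include a shift that all genes share, downward in ER and upward in cytosol.

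**Figure D2:**
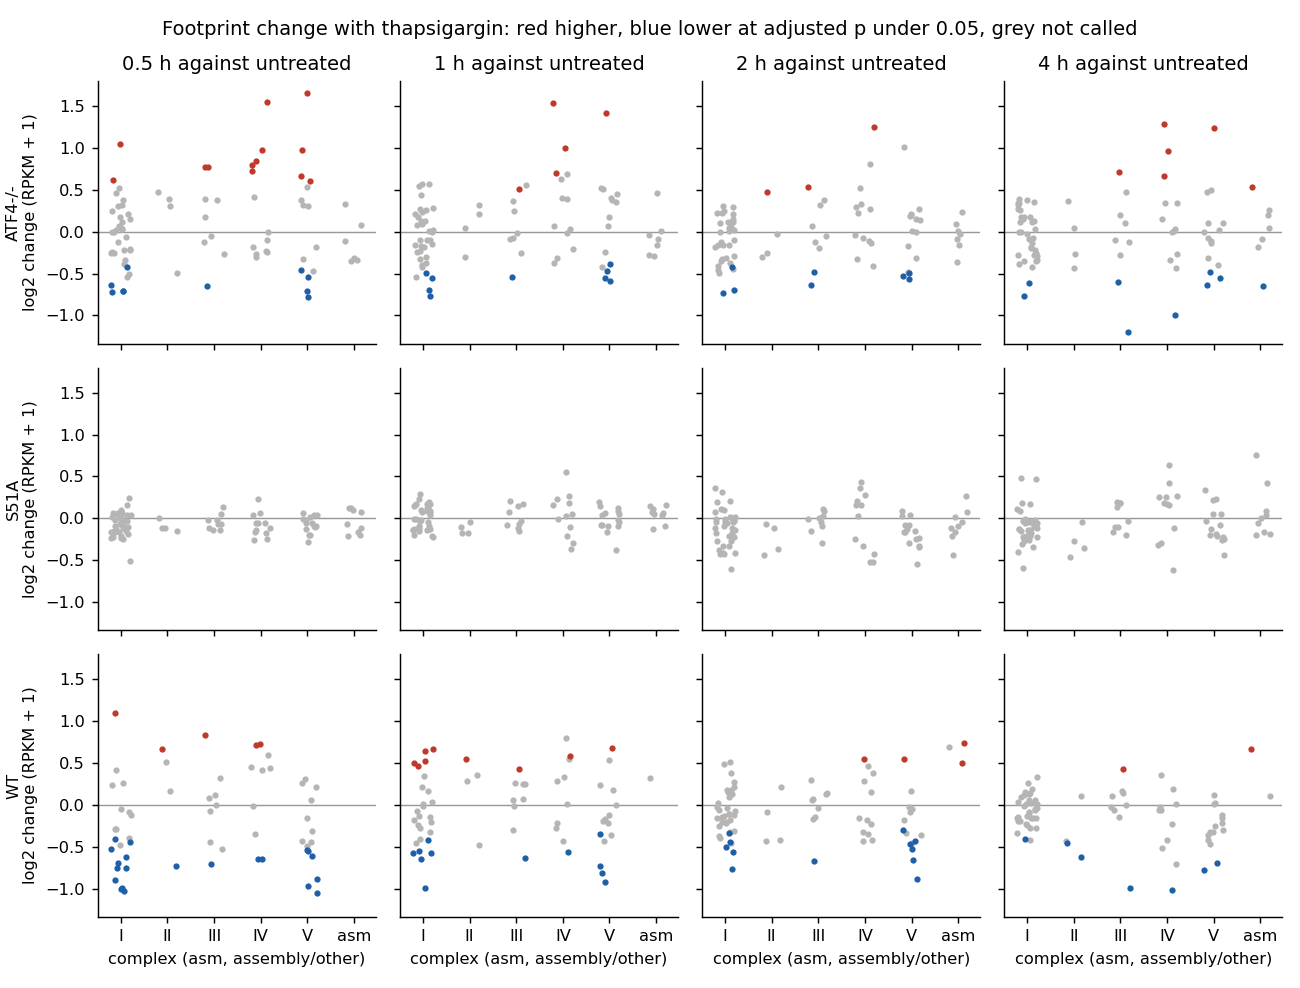
Log2 footprint change of each member against untreated cells by complex, for cells labelled ATF4-/-, S51A and WT (rows from top) at 0.5, 1, 2 and 4 h (columns); red points are higher and blue points lower at an adjusted p under 0.05, grey points were not called. No member of S51A is coloured, and in WT at 0.5 h the blue points are mostly in complexes I and V.

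Atp5f1 encodes subunit b of the peripheral stalk that holds the ATP synthase head in place, and it fell most at 0.5 h in WT. Its footprints in WT ER were 61.7 and 70.7 RPKM at 0.5 h, against 168 and 213 RPKM untreated, and in WT cytosol 367 and 188 RPKM, against 434 and 364 RPKM. The ER libraries did not overlap, while 1 cytosol library at 0.5 h lay within the untreated pair. The log2 change was -1.05 ± 0.15 (limma, adjusted p = 2.9e-06), then -0.92 ± 0.15 at 1 h and -0.43 ± 0.15 at 2 h, and at 4 h it was -0.25 ± 0.15 (adjusted p = 0.22). The ER libraries were lowest at 0.5 h, and at 4 h, with 155 and 151 RPKM, they still lay below the untreated pair.

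Other parts of the ATP synthase fell with it at 0.5 h. Atp5d, the δ subunit of the catalytic head, had 68.3 and 78.3 RPKM in WT ER at 0.5 h, against 162 and 265 RPKM untreated, and 279 and 151 RPKM in cytosol, against 276 and 284 RPKM. Its ER groups did not overlap and its cytosol groups did. The log2 change was -0.97 ± 0.16 (limma, adjusted p = 1.2e-05), and at 4 h it was still -0.78 ± 0.16 (adjusted p = 0.00032). Atp5c1, the central rotor shaft, fell by 0.88 and Atp5a1, the α subunit, fell by 0.61 on the log2 scale. The catalytic partner Atp5b had a change of -0.31 that was not called, and of the c subunit genes Atp5g1, Atp5g2 and Atp5g3 none was called at 0.5 h, while Atp5g3 fell by 0.70 at 4 h.

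In complex I, subunits of the electron-carrying arm were among the lower ones. Ndufv2, an iron-sulfur subunit of the NADH-binding module, had 22.3 and 19.6 RPKM in WT ER at 0.5 h, against 65.5 and 75.2 RPKM untreated, and 150 and 72.6 RPKM in cytosol, against 148 and 122 RPKM. The ER groups did not overlap and the cytosol groups did, with a log2 change of -1.03 ± 0.24 (limma, adjusted p = 0.00072). Ndufs8, another iron-sulfur subunit, had 22.4 and 28.2 RPKM in ER, against 51.6 and 63.9 RPKM, and 72.2 and 30.6 RPKM in cytosol, against 84.3 and 84.1 RPKM. Here neither fraction overlapped, and the log2 change was -0.99 ± 0.18 (adjusted p = 7.1e-05). Ndufab1, the mitochondrial acyl carrier protein, fell by 1.01 and the accessory subunit Ndufb9 by 0.90. The core subunits Ndufs1 and Ndufv1 had changes of -0.29 and 0.26, neither of them called, and Ndufa9, an accessory subunit near the quinone site, fell by 0.44.

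A single complex I member rose at 0.5 h in WT, the small membrane-arm subunit Ndufb3. It had 138 and 170 RPKM in ER, against 61.0 and 53.9 RPKM untreated, and 328 and 318 RPKM in cytosol, against 223 and 155 RPKM. Neither fraction overlapped, and the log2 change was 1.10 ± 0.22 (limma, adjusted p = 0.00018), 0.67 ± 0.22 at 1 h and -0.04 ± 0.22 at 4 h. The 1 h call was lost without WT cytosol 0 h b (0.54), WT ER 0 h b (0.62) or WT ER 1 h a (0.41).

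In complexes II and III single subunits of one complex moved in opposite directions. Sdhb, the iron-sulfur subunit of succinate dehydrogenase, fell by 0.73 at 0.5 h in WT (limma, adjusted p = 0.0031), a call that was lost without WT cytosol 0.5 h b, where the change was -0.52. The membrane anchor Sdhd had 104 and 121 RPKM in ER at 0.5 h, against 71.6 and 70.7 RPKM untreated, and 112 and 188 RPKM in cytosol, against 81.6 and 98.2 RPKM. Its groups did not overlap in either fraction, and the change was 0.67 ± 0.16 (adjusted p = 0.0013). The flavoprotein Sdha and the other anchor Sdhc had changes of 0.17 and 0.51, which were not called.

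Uqcrfs1, the Rieske iron-sulfur protein of complex III, had 19.4 and 22.9 RPKM in WT ER at 0.5 h, against 39.9 and 48.3 RPKM untreated, and 79.0 and 45.1 RPKM in cytosol, against 77.1 and 79.8 RPKM. Its ER groups did not overlap, its cytosol groups did, and it fell by 0.71 (limma, adjusted p = 0.00096). Uqcrh, the hinge protein of complex III, had 554 and 585 RPKM in ER, against 394 and 298 RPKM, and 804 and 916 RPKM in cytosol, against 417 and 481 RPKM. It was above the untreated pair in both fractions at 0.5 h, with a change of 0.83 ± 0.21 (adjusted p = 0.0016). By 4 h it was below the untreated pair in both, with 193 and 160 RPKM in ER and 197 and 246 RPKM in cytosol, a change of -0.99 ± 0.21 (adjusted p = 0.00052). The core proteins Uqcrc1 and Uqcrc2, cytochrome Cyc1 and the small subunit Uqcrb were not called at any time in WT.

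Complex IV differed in sign between early and late times for 1 of its small subunits. Cox7a2 had 198 and 200 RPKM in WT ER at 0.5 h, against 94.5 and 169 RPKM untreated, and 504 and 444 RPKM in cytosol, against 293 and 246 RPKM. The groups did not overlap in either fraction. At 4 h it had 72.0 and 83.7 RPKM in ER and 113 and 99.7 RPKM in cytosol, below the untreated pair in both fractions. The change was 0.73 ± 0.27 at 0.5 h (limma, adjusted p = 0.024) and -1.02 ± 0.27 at 4 h (adjusted p = 0.0041). The rise at 0.5 h was called in no more than 2 of 8 fits that leave out 1 library, with changes of 0.52 to 0.94, and likewise for Cox6b1 (0.71, adjusted p = 0.036), while the fall at 4 h was called in all 8. Cox5a fell by 0.64 at 0.5 h (limma, adjusted p = 0.039). It was not called with the TMM-type scaling, with voom weights, with no depth filter or without the shallow libraries. Cox4i1 rose by 0.59 at 1 h and 0.55 at 2 h, and Ndufa4 fell by 0.65 at 0.5 h and 0.57 at 1 h.

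**Figure D3:**
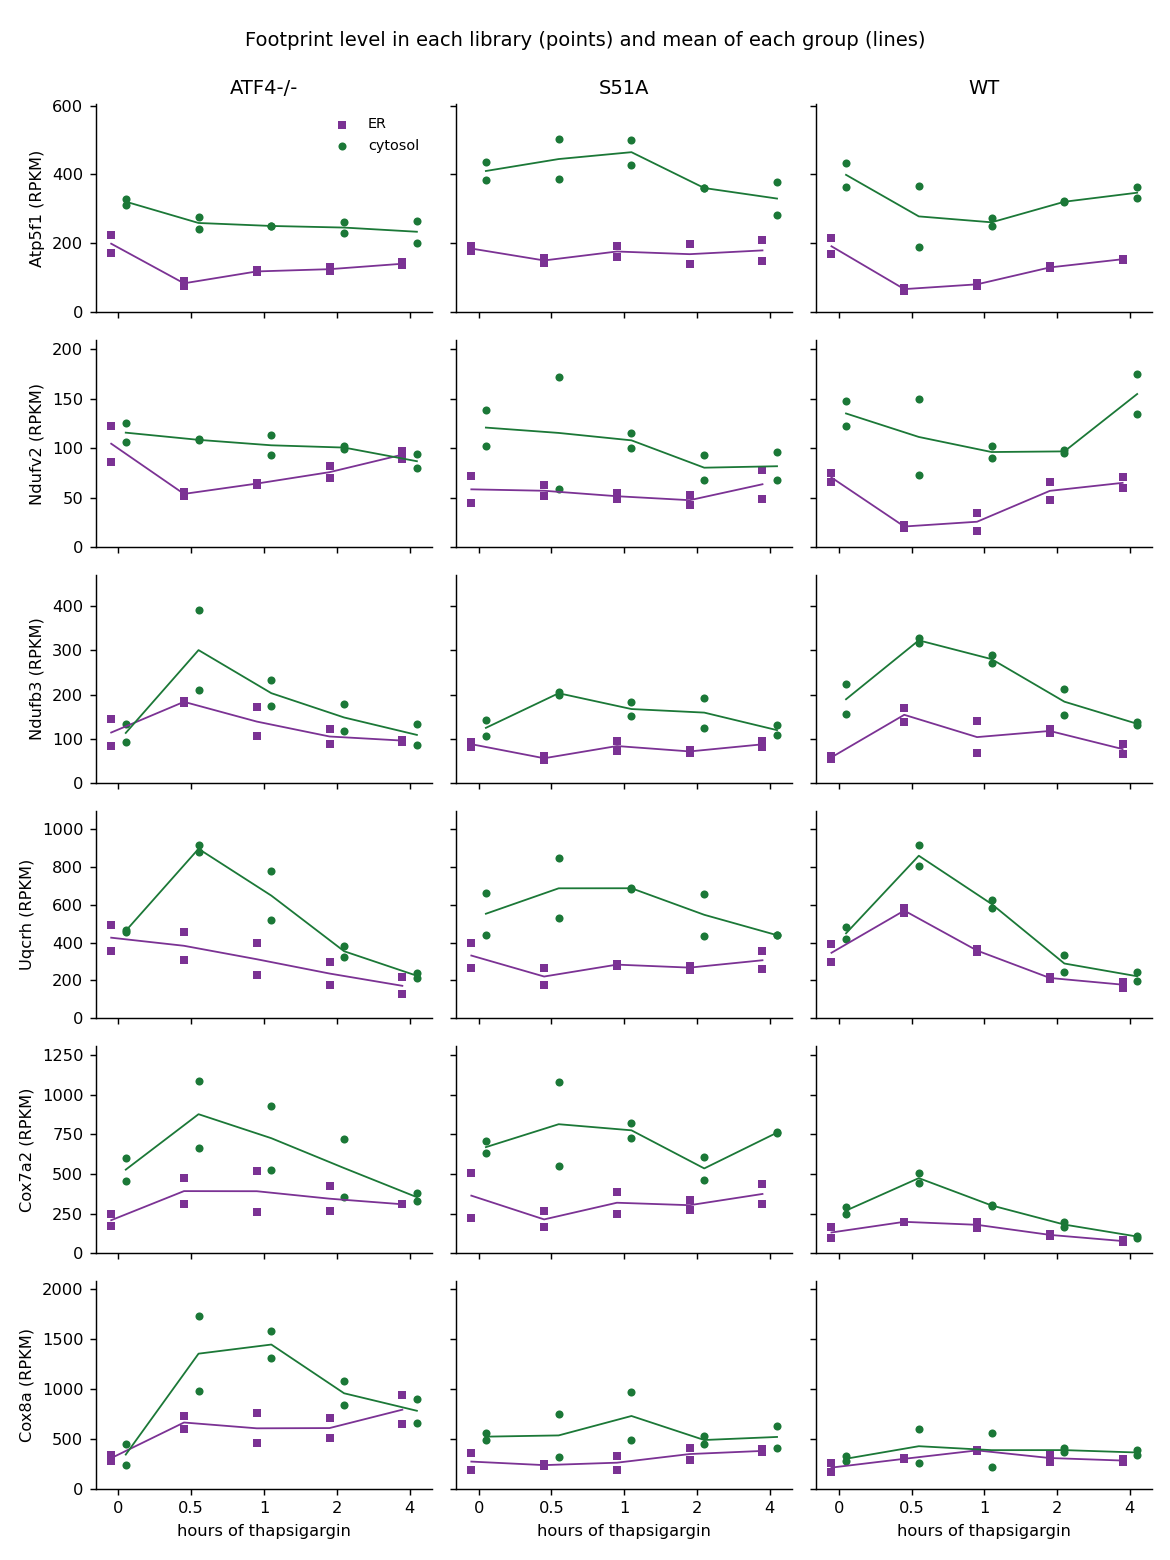
Footprint level (RPKM) of Atp5f1, Ndufv2, Ndufb3, Uqcrh, Cox7a2 and Cox8a (rows) in each library over time after thapsigargin (h) in cells labelled ATF4-/-, S51A and WT (columns); purple squares are ER and green circles cytosol libraries, lines join group means. In WT, Atp5f1 dips at 0.5 h and Uqcrh peaks there and lies below the untreated pair at 4 h.

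At the later times fewer members changed in WT. At 1 h 9 members rose and 12 fell of 66 tested, beside 40.2% of all genes. At 2 h 4 rose and 12 fell of 79 tested, beside 33.9%, and at 4 h 2 rose and 7 fell of 76 tested, beside 29.9% of which 22% upward and 7.87% downward. The count of 16 at 2 h dropped to 6 to 10 without any 1 of WT cytosol 0 h a, ER 0 h a, cytosol 2 h a, ER 2 h a or ER 2 h b, and the 9 at 4 h dropped to 5 without ER 4 h a. Among the higher members was the complex I assembly factor Ndufaf2 in WT, with 63.1 and 67.3 RPKM in ER at 4 h, against 44.5 and 35.3 RPKM untreated, and 65.5 and 81.6 RPKM in cytosol, against 49.3 and 44.3 RPKM. No group overlapped, and Ndufaf2 rose by 0.74 at 2 h and 0.67 ± 0.18 at 4 h (limma, adjusted p = 0.0057). Ndufaf1, another of these factors, rose by 0.50 at 2 h. Ndufaf3, Ndufaf4, Ndufaf6 and Ndufaf7 had too few reads for a test in WT at any time, and Ndufaf5 was tested at 2 h alone and not called. Cox7a2l, reported elsewhere as induced through PERK, had enough reads for a test in WT at 2 h alone, with a change of 0.39 that was not called.

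Comparing 4 h with 1 h in WT uses no untreated library: 7 members were higher and 11 lower of 63 tested. Beside them stand 47.6% of all genes, 35.9% higher and 11.7% lower. The median change was -0.08 over the members and 0.21 over all genes tested. Cox7a2 was lower by 1.35 ± 0.27 (limma, adjusted p = 0.00011), Uqcrh by 1.24 ± 0.21 (adjusted p = 1.6e-05) and Sdhd by 1.00 ± 0.16 (adjusted p = 9.8e-06). Ndufv2 was higher by 1.03 ± 0.24 (adjusted p = 0.00064) and Atp5f1 by 0.67. With the TMM-type scaling 5 were higher and 16 lower, and without the shallow libraries 10 were higher and 7 lower of 75. In cells labelled ATF4-/- the same comparison called 1 of 84 members, Uqcrh, lower by 1.18 ± 0.21 (adjusted p = 0.00026), beside 4.60% of all genes, and 3 without cytosol 4 h b and 2 without ER 1 h b. In S51A it called none of 85, beside 7.38%, with 4 members and 1703 of all genes at an unadjusted p under 0.05 in limma and 1 call without ER 1 h a. The deposited totals of the members made up 2.45, 2.34, 2.30, 2.17 and 2.18% of all levels in WT from 0 to 4 h.

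The changes at 0.5 h ran with the length of the coding sequence, which is short in this set, with a median of 435 nt against 1194 nt over all genes. In WT, members of up to 300 nt had a median change of 0.17, with 3 higher and 3 lower of 16, and those of over 500 to 1000 nt a median of -0.66, with 0 higher and 11 lower of 16. Other genes in the same length classes had medians of 0.30 and -0.22. In cells labelled ATF4-/-, members of up to 300 nt had 7 higher and none lower of 19, and those of over 500 to 1000 nt 1 higher and 7 lower of 21. Over all genes tested, of any length, 10.1% rose and 14.6% fell in these cells, against 18.5% and 30.4% in WT. Call shares of other genes of the same length are not given here, so these counts alone do not mark the split as particular to the members. Spearman's rho with coding length was -0.49 over 83 members in cells labelled ATF4-/-, 0.01 over 85 in S51A and -0.34 over 60 in WT. Over all other genes it was -0.13, 0.01 and 0.03, and all points of a panel share the same libraries.

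**Figure D4:**
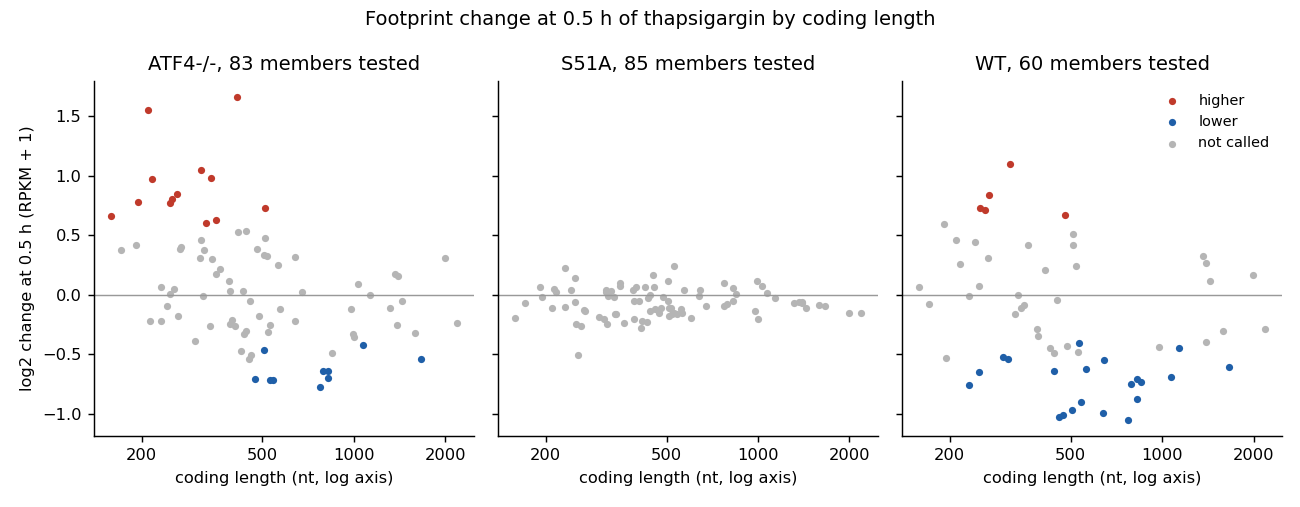
Log2 footprint change at 0.5 h of thapsigargin against coding length (nt, log axis) for the members tested in cells labelled ATF4-/-, S51A and WT from left to right. Red points are higher and blue points lower at an adjusted p under 0.05, and grey points are members that were not called. Among members the shorter coding sequences lie higher in cells labelled ATF4-/- and in WT, with rho -0.49 and -0.34, and not in S51A, with rho 0.01.

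In S51A cells no member was called at any time, of 85 tested. The background was also low, with 0, 0.447, 7.66 and 9.29% of all genes changed at 0.5, 1, 2 and 4 h. Of the members, 1, 0, 4 and 5 had an unadjusted p under 0.05 in limma at these times, beside 26, 420, 1948 and 1921 of all genes. At 0.5 h the 26 were of 8636 genes tested, a smaller share than 0.05. The spread in these tests was shared with the other genotypes, and whether it is too wide for S51A was not tested. A lack of calls in S51A therefore does not show a lack of change. Members' median changes were -0.07, -0.01, -0.09 and -0.08, beside -0.05, -0.07, -0.02 and 0.01 over all genes. With voom weights in limma 2 members were lower at 2 h, and 1 was higher and 2 lower at 4 h. Atp5f1 had 157 and 142 RPKM in S51A ER at 0.5 h, against 192 and 176 RPKM untreated, and 503 and 386 RPKM in cytosol, against 437 and 383 RPKM, a change of -0.10 ± 0.15. Its ER groups did not overlap and its cytosol groups did.

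The difference between the genotypes' changes was tested itself. At 0.5 h the change in S51A minus that in WT was higher for 11 and lower for 3 of 63 members tested, beside 24.9% of all genes. For Atp5f1 the difference was 0.95 ± 0.22 (limma, adjusted p = 0.0023) and for Atp5d 0.91 ± 0.22 (adjusted p = 0.0046). Ndufb3 had 51.2 and 59.5 RPKM in S51A ER at 0.5 h, against 93.3 and 81.2 RPKM untreated, and 199 and 207 RPKM in cytosol, against 143 and 106 RPKM. It lay below the untreated pair in ER and above it in cytosol, and its change differed from that in WT by -1.06 ± 0.31 (adjusted p = 0.014). Without WT cytosol 0.5 h b, the shallowest library, 3 of the 14 were called, namely Atp5f1, Atp5d and Ndufb3, and the difference for Atp5f1 was 0.71. Without all shallow libraries the 4 called were these and Sdhd.

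At later times few differences passed. The change in S51A minus that in WT was higher for 4 and lower for 2 of 66 members at 1 h, lower for 2 of 79 at 2 h, namely Ndufaf1 and Ndufaf2, and higher for 2 of 77 at 4 h. Background shares were 20.1, 18.4 and 14.3% of all genes. The higher ones were 11.8, 4.29 and 4.87% and the lower ones 8.35, 14.1 and 9.47%. The 6 at 1 h dropped to 3 without WT cytosol 0 h a, S51A cytosol 0 h b or S51A ER 1 h b and to 2 without S51A cytosol 1 h b. The 2 at 2 h became 0 or 1 in 13 of the 16 fits without 1 library and 4 without S51A ER 0 h b. Those called at 4 h were Cox7a2, with a difference of 1.18 ± 0.38 (limma, adjusted p = 0.032), and Atp5g3, with 0.92 ± 0.29 (adjusted p = 0.027). Cox7a2 had 309 and 440 RPKM in S51A ER at 4 h, against 503 and 224 RPKM untreated, and 764 and 757 RPKM in cytosol, against 633 and 705 RPKM. Its ER groups overlapped and its cytosol group lay above the untreated one. At 4 h the count was 0 or 1 in 9 of the 16 fits that leave out 1 library.

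With thapsigargin, several small subunits of complexes IV and V rose in cells labelled ATF4-/-, and subunits of complexes I and V fell. At 0.5 h 13 members rose and 10 fell of 83 tested, beside 24.7% of all genes, 10.1% upward and 14.6% downward. Of 13 complex IV members tested 5 rose and none fell, and of 15 in complex V 4 rose and 4 fell. In complex I 2 rose and 5 fell of 36, in complex III 2 rose and 1 fell of 9, and none of the 4 in complex II and of 6 assembly genes was called.

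Cox8a, a small subunit of complex IV, had 599 and 730 RPKM in ER at 0.5 h in cells labelled ATF4-/-, against 340 and 275 RPKM untreated, and 1733 and 976 RPKM in cytosol, against 238 and 448 RPKM. All treated libraries lay above the untreated ones. The log2 changes were 1.55 ± 0.30, 1.54 ± 0.30, 1.25 ± 0.30 and 1.29 ± 0.30 at 0.5, 1, 2 and 4 h (limma, adjusted p = 0.00037, 0.00037, 0.0032 and 0.0019), and all 8 fits that leave out 1 library kept the calls at each time. In WT its values were 296 and 306 RPKM in ER at 0.5 h, against 259 and 167 RPKM untreated, and 255 and 599 RPKM in cytosol, against 279 and 324 RPKM. The ER pair was higher there and the cytosol pairs overlapped, with a log2 change of 0.46. Cox8a was not among the members whose change at 0.5 h was called as different between cells labelled ATF4-/- and WT.

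Atp5g1, one of the c subunit genes, had 595 and 1049 RPKM in ER at 0.5 h in cells labelled ATF4-/-, against 365 and 233 RPKM untreated, and 1535 and 2611 RPKM in cytosol, against 592 and 497 RPKM. No group overlapped, and the log2 change was 1.66 ± 0.39 (limma, adjusted p = 0.0022), for a gene whose whole coding sequence is shared with other annotated genes. Ndufb3 had 185 and 182 RPKM in ER, against 83.4 and 144 RPKM, and 209 and 392 RPKM in cytosol, against 91.7 and 134 RPKM, and rose by 1.05 ± 0.22 (adjusted p = 0.00084) with no overlap. Atp5k, subunit e of the ATP synthase, and Cox6a1 rose by 0.97 and 0.98, the second a call that 6 of 8 fits without 1 library lost.

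The members that fell at 0.5 h in cells labelled ATF4-/- were led by Atp5f1. It had 90 and 76.1 RPKM in ER, against 172 and 225 RPKM untreated, and 275 and 242 RPKM in cytosol, against 330 and 311 RPKM. Both fractions lay below the untreated pairs, and the change was -0.77 ± 0.15 (limma, adjusted p = 0.00044). Ndufb9, Ndufb10, Ndufab1 and Atp5c1 fell by 0.72, 0.71, 0.71 and 0.70. At 4 h 6 members rose and 9 fell of 84, beside 22.2% of all genes, 13.3% upward and 8.91% downward. Uqcrh fell by 1.19 ± 0.21 at 4 h (limma, adjusted p = 7.5e-05). It had 216 and 125 RPKM in ER, against 356 and 495 RPKM untreated, and 237 and 210 RPKM in cytosol, against 457 and 467 RPKM. Neither fraction overlapped.

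The remaining times in cells labelled ATF4-/- gave 5 higher and 9 lower of 84 at 1 h, and 3 higher and 8 lower of 84 at 2 h. Beside them stand 20.9% of all genes at 1 h, 10.9% upward and 10.0% downward, and 17.8% at 2 h, 11.9% upward and 5.96% downward. Without the untreated ER library b these counts dropped to 7 at 1 h, 4 at 2 h and 7 at 4 h. At 1 h they were also 9 without untreated cytosol a and 8 without cytosol 1 h b, at 2 h they lay between 4 and 7 in 7 of the 8 fits without 1 library, and at 4 h they were 9 without untreated cytosol b or ER 4 h a. Against WT, the change was higher in cells labelled ATF4-/- for 2 of 63 members at 0.5 h, beside 3.76% of all genes. They were Uqcr10, a small complex III subunit, with a difference of 1.31 ± 0.35 (limma, adjusted p = 0.031), and Atp5o, the stalk protein OSCP, with 0.87 ± 0.25 (adjusted p = 0.042). No member was called at 1 or 2 h, of 66 and 79 tested, beside 0.978 and 1.10% of all genes, where 9 and 5 had an unadjusted p under 0.05 in limma, and at 4 h Ndufaf1 was lower by 0.74, 1 of 76 beside 4.41%. The 2 calls at 0.5 h became 0 or 1 in 11 of the 16 fits without 1 library, 5 without WT ER 0 h a and 8 without WT cytosol 0.5 h a, and the call at 4 h was lost in 9 of them.

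Untreated cells of the genotypes differed in many members. Against WT, 27 members were higher and 5 lower of 82 tested in cells labelled ATF4-/-, beside 51.5% of all genes, 14% upward and 37.5% downward, with medians of 0.22 over the members and -0.26 over all genes. In S51A 17 were higher and 5 lower of 81 tested, beside 42.1% of all genes, 15% upward and 27.1% downward, with medians of 0.10 and -0.11. With the TMM-type scaling, which moved the median of all genes by 0.17 and 0.14, the counts were 38 higher and 3 lower in cells labelled ATF4-/- and 27 higher and 4 lower in S51A.

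By complex, cells labelled ATF4-/- had 12 higher and 3 lower of 36 complex I members, 7 and 1 of 15 in complex V, 3 and 0 of 9 in complex III, 2 and 0 of 4 in complex II, 3 and 0 of 12 in complex IV and 0 and 1 of 6 assembly genes. In S51A complex II had 3 higher of 4 and complex IV 5 higher and 1 lower of 12. Complex I there had 7 higher and 2 lower of 36, complex III and V had 1 higher each, and 2 of 5 assembly genes were lower.

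Ndufb9 gave the smallest p of these differences. It had 289 and 306 RPKM in ER and 243 and 200 RPKM in cytosol of untreated cells labelled ATF4-/-, against 80.0 and 84.9 RPKM in ER and 93.3 and 91.0 RPKM in cytosol of WT. No library overlapped, with a difference of 1.54 ± 0.15 (limma, adjusted p = 5.3e-10). Atp5g1 was higher by 1.91 ± 0.39 (adjusted p = 0.00012), with 365 and 233 RPKM in ER and 592 and 497 RPKM in cytosol, against 83.7 and 133 RPKM and 99 and 112 RPKM in WT. Its sister genes Atp5g3 and Atp5g2 were higher by 1.06 and 1.05 and Atp5b by 0.91. Ndufs5, a small complex I subunit, had 22.4 and 27.6 RPKM in ER and 22.8 and 35.8 RPKM in cytosol, against 29.2 and 42.5 RPKM and 94.3 and 99.6 RPKM in WT, and was lower by 1.11 ± 0.30 (adjusted p = 0.0025). Its groups did not overlap in either fraction.

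The widest difference in S51A was at Cox7c, a complex IV subunit whose coding sequence is fully shared with other annotated genes. Its untreated footprints were 987 and 261 RPKM in ER and 1468 and 850 RPKM in cytosol of S51A, against 96.3 and 119 RPKM and 169 and 180 RPKM in WT. All S51A libraries were higher, although they spread widely, and the difference was 2.46 ± 0.42 (limma, adjusted p = 1.9e-05). It was also higher in cells labelled ATF4-/-, by 1.44 ± 0.42 (adjusted p = 0.0048), with 261 and 176 RPKM in ER and 833 and 501 RPKM in cytosol. After 0.5 h of thapsigargin the S51A cytosol libraries had 1053 and 6353 RPKM of Cox7c, and that library b was also the higher one for Ndufa12, with 788 against 232 RPKM in library a, and for Sdhb, with 440 against 210 RPKM.

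Sdhc, a membrane anchor of succinate dehydrogenase with no shared sequence, had 214 and 106 RPKM in ER and 264 and 263 RPKM in cytosol of untreated S51A, against 56.1 and 93.2 RPKM and 108 and 121 RPKM in WT. The groups did not overlap, with a difference of 1.13 ± 0.23 (limma, adjusted p = 0.00013). Cox7a2 was higher in S51A by 1.36 ± 0.27 (adjusted p = 0.00011) and Cox7a2l by 1.08. Ndufs6, a zinc-binding subunit of complex I, was lower in both mutant lines, by 0.82 ± 0.22 in cells labelled ATF4-/- (adjusted p = 0.0022) and by 1.13 ± 0.22 in S51A (adjusted p = 9.4e-05). It had 41.4 and 38.3 RPKM in ER and 43.3 and 41.1 RPKM in cytosol of cells labelled ATF4-/- and 25.7 and 28 RPKM and 43.1 and 37.2 RPKM in S51A. In WT it had 56.8 and 65.4 RPKM in ER and 74.5 and 104 RPKM in cytosol, above all mutant libraries. Both comparisons share the WT libraries.

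The members were spread over ER and cytosol much as other genes were. The median deposited share of a member's footprints on the ER in untreated cells was 47.3% in cells labelled ATF4-/-, 37.4% in S51A and 38.4% in WT. Other genes had medians of 44.6, 38.2 and 38.8%, and other genes that the authors mark as ER-targeted 95.4, 92.3 and 94.5%. The authors' mark covers 32 of the 93 members, among them 13 of 20 in complex IV, yet in untreated WT marked members had a median of 40.0% and unmarked members 38.1%.

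A few members stood apart by fraction. Ndufa3, a short subunit of complex I with a membrane segment, had the highest share in untreated WT, 79.2%, with 176 and 242 RPKM in ER against 57.2 and 52.8 RPKM in cytosol, a difference of 1.89 ± 0.31 (limma, adjusted p = 2.5e-05). The same difference for it was 2.17 ± 0.31 (adjusted p = 1.3e-06) in cells labelled ATF4-/- and 1.90 ± 0.31 (adjusted p = 8e-06) in S51A. Ndufc2 had 131 and 154 RPKM in ER against 66.4 and 46.8 RPKM in cytosol of untreated WT, and Sdha and Cox4i1 were higher on the ER by 1.01 and 0.84. The lowest share in WT was that of Ndufb3, 23.3%, with a difference of -1.68 ± 0.31. In all, 9 members were higher and 8 lower on the ER than in cytosol of 85 tested in cells labelled ATF4-/-, beside 17.3% of all genes, 4 and 43 of 85 in S51A, beside 47.3%, and 5 and 35 of 82 in WT, beside 47.8%. With the TMM-type scaling, which moved the median of all genes by -0.33, cells labelled ATF4-/- had 8 higher and 33 lower. Leaving out any 1 untreated library gave 9 to 11 calls in cells labelled ATF4-/-. In S51A 30 and 31 were called without cytosol a and ER a, and in WT 23 and 22 without cytosol a and ER a.

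At 0.5 h of thapsigargin most falls on the deposited scale were in ER libraries, where the summed level of all genes was also lower. This sum was 350693 and 370098 RPKM in ER of cells labelled ATF4-/-, against 418724 and 450736 RPKM untreated, and 290622 and 287483 RPKM in S51A, against 392028 and 388858 RPKM. In cytosol it was higher in both, with 699195 and 740289 RPKM in cells labelled ATF4-/-, against 510543 and 546950 RPKM, and 637787 and 623399 RPKM in S51A, against 511635 and 488215 RPKM. Within ER libraries 2 members rose and 33 fell of 82 in WT, beside 32.1% of all genes, 8.45% upward and 23.6% downward. Medians there were -0.60 over the members and -0.29 over all genes. Within WT cytosol 8 rose and 4 fell of 60, beside 20.0%, 17.3% upward and 2.73% downward. In cells labelled ATF4-/- 2 rose and 22 fell of 84 in ER, beside 22.1%, 0.777% upward and 21.3% downward. In their cytosol 19 rose and none fell of 83, beside 17.4%, 16.7% upward and 0.604% downward. In S51A no member was called in either fraction, of 85 tested, beside 0% in both, while 11 in cytosol and 13 in ER had an unadjusted p under 0.05 in limma, beside 727 and 991 of all genes. Without S51A cytosol 0.5 h a 7 were called in cytosol. These counts move with the scaling and with single libraries: with the TMM-type scaling, which centres the libraries of a fraction on each other and moved the median of all genes by 0.45 in WT ER, 7 rose and 14 fell there. In cells labelled ATF4-/- it gave 9 higher and 3 lower in ER and 7 higher and 4 lower in cytosol. In WT cytosol 1 member was called without cytosol 0.5 h b, 3 without untreated cytosol a and 7 without untreated cytosol b, and in WT ER 21 and 23 were called without untreated ER b and ER 0.5 h a. All single-library fits of cells labelled ATF4-/- gave 9 to 13 calls in either fraction.

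Among the members tested in WT, the ER change minus the cytosol change was lowest for Ndufc2. It had 86.2 and 69.5 RPKM in WT ER at 0.5 h, against 131 and 154 RPKM untreated, and 156 and 216 RPKM in cytosol, against 66.4 and 46.8 RPKM, so that it was lower in ER and higher in cytosol without overlap. This shift between fractions was -2.47 ± 0.48 (limma, adjusted p = 0.0005) for Ndufc2 in cells labelled ATF4-/- and -2.57 ± 0.48 (adjusted p = 0.00011) in WT. It includes the untreated ER and cytosol libraries, so it is not independent of a gene's untreated ER share, and it includes the shift of all genes between fractions. It was lower for 21 of 83 members in cells labelled ATF4-/-, 5 of 85 in S51A and 17 of 60 in WT, beside 21.1, 4.18 and 23.3% of all genes. The shares were close to the background in each genotype, and with the TMM-type scaling it passed for 1, 0 and 2 members. Leaving out 1 library gave 11 to 18, 0 to 12 and 10 to 18 members, the 12 without untreated S51A ER b and the 10 without WT ER 0.5 h a. At 1 h it was lower for 6 of 84 members in cells labelled ATF4-/-, 0 of 85 in S51A and 6 of 66 in WT, beside 4.38, 0 and 9.48% of all genes. The count in cells labelled ATF4-/- was 1 to 3 without untreated ER a or any 1 of the 1 h libraries. That in WT was 1 without ER 0 h a, cytosol 1 h a or ER 1 h b, 3 when untreated cytosol a was left out and 14 when ER 1 h a was. At 2 h it was lower for 0, 0 and 1 members, beside 0.0565, 0 and 1.37%, and for 3 in WT without ER 0 h b. At 4 h no member passed in any genotype, beside 0.0660, 0 and 0.0663% of all genes, and 6, 3 and 3 had an unadjusted p under 0.05 in limma, in the order cells labelled ATF4-/-, S51A and WT.

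**Figure D5:**
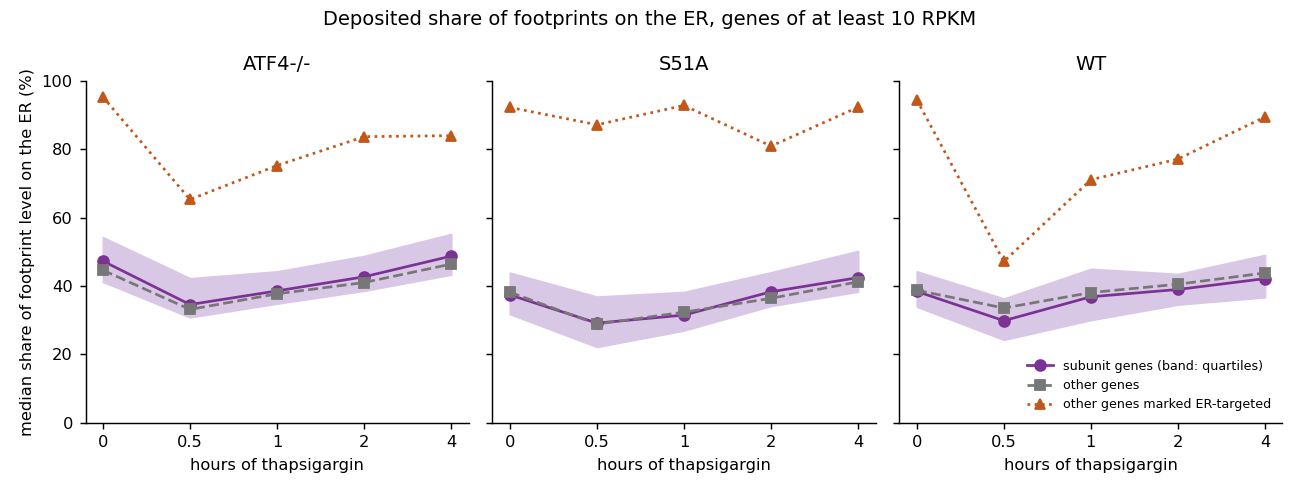
Share of footprints on the ER (%) over time after thapsigargin (h) in cells labelled ATF4-/-, S51A and WT from left to right, as the median of the members (band: quartiles), of other genes and of other genes the authors mark as ER-targeted. The members run with the other genes, with 34.6, 29.2 and 29.9% at 0.5 h, and the ER-targeted genes dip to 47.2% at 0.5 h in WT.

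The mRNA libraries were too shallow to test most members. Their depth was 207 to 300926 reads in cells labelled ATF4-/-, which gave 1 library per group and no test, 667 to 555962 in S51A and 56945 to 118509 in WT. Of 83 members that passed the filter on low values, 2 had enough reads for a test in WT, Atp5a1 and Atp5b, and none in S51A. Atp5b mRNA had 249 and 227 RPKM in WT ER at 0.5 h, against 382 and 228 RPKM untreated, and 399 and 432 RPKM in cytosol, against 230 and 195 RPKM, with overlap in ER and none in cytosol. Its change was 0.33 ± 0.93 (limma, adjusted p = 1.00), and the change of footprints relative to mRNA was -0.64 ± 0.98. No member was called in mRNA or in this ratio in WT, beside 0% of 312 and 260 genes at 0.5 h, and none of those 2 members had an unadjusted p under 0.05. In summed deposited levels the members were 0.569% of mRNA in untreated WT, beside 2.45% of footprints. The gap was smaller in untreated S51A, with 1.29% and 2.87%, and in untreated cells labelled ATF4-/-, with 1.37% and 2.61%. These mRNA shares rest on few reads per member, and the differences were not tested.

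Other mitochondrial genes were set beside the members at 0.5 h in WT and between untreated lines. The counts at 0.5 h stand beside 48.9% of all genes tested that changed, 18.5% upward and 30.4% downward. Of 6 carriers of the inner and outer membrane tested in WT at 0.5 h 5 fell, among them Vdac2, the outer membrane channel, by 0.93, and Slc25a4, an ADP and ATP exchanger, by 0.63. Of 16 genes of the TCA cycle and pyruvate dehydrogenase 3 rose and 8 fell, among the lower ones Dlat, by 0.74. Mitochondrial ribosomal proteins had 3 higher and 4 lower of 15, import genes 1 and 3 of 10, chaperones and proteases 1 and 1 of 6, and regulators of mitochondrial genes 1 and 2 of 3. Assembly factors with other symbols had 1 higher, the copper chaperone partner Cox19 by 1.27, and 1 lower of 3. The electron carrier Cycs had a change of 0.48 that was not called.

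Between untreated lines, 14% of all genes were higher and 37.5% lower in cells labelled ATF4-/- than in WT, and 15% higher and 27.1% lower in S51A. Mitochondrial ribosomal proteins had 27 higher and 5 lower of 72 in cells labelled ATF4-/- and 6 higher and 12 lower of 72 in S51A, with medians of 0.37 and -0.08, beside -0.26 and -0.11 over all genes. Import genes had 10 higher and 2 lower of 24 in cells labelled ATF4-/- and 0 higher and 8 lower of 24 in S51A, where Timm9, a chaperone of the space between the membranes, was lower by 2.36. Carriers had 6 higher and 1 lower of 9 and 4 higher and 2 lower of 9, and TCA cycle genes 3 and 3 of 18 and 4 and 2 of 18, in the same order. Chaperones and proteases had 6 higher and none lower of 11, against 1 higher and 3 lower of 11, and assembly factors with other symbols 5 and 4 of 26, against 2 and 3 of 24. Regulators had 1 higher and 1 lower of 7, against 0 and 3 of 7, and Cycs was not called in cells labelled ATF4-/- and was lower in S51A by 1.09.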

How the data were processed

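Ribosome footprints and mRNA of ER and cytosol fractions of MEFs were deposited by the authors as tables of 22417 genes, with a total level and a ratio per gene, genotype and time. No file header names the unit, and the deposited levels were read from their values as RPKM. The deposited ratio is the fraction of a gene's level on the ER, and the authors pooled replicates and fractions. Bowtie 1.1.1 and cutadapt 1.6 are named per the submitters' processing notes. The sources used here do not name a genome build. Whole reads per library were recovered from the deposited RPKM and ratio with coding lengths of GENCODE (GRCm38) for 20224 genes. For footprints 339705 of 346330 values (98.1%) came out whole within a relative tolerance of 7e-12, and for mRNA 174587 of 177812 (98.2%). With lengths exchanged between genes 0.128% and 0.0775% did. Library a of a group is the one in which 1 read is worth less. In WT footprints values under 4 reads are listed at 0.

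The recovered library values were tested as log2(RPKM + 1) with limma 3.58.1 (trend) in R 4.3.3, over genes at 1 RPKM or more in at least 10 libraries (10417 for footprints, 10282 for mRNA), with Benjamini-Hochberg adjustment over genes with at least 20 predicted reads and a threshold of 0.05. Such fold changes understate low genes. All footprint libraries of all genotypes entered a single fit, so a gene's spread was estimated jointly over all groups. ER and cytosol come from the same cells and were not paired in the fit. Alternatives were no depth filter, a pseudocount of 5, TMM-type scaling, voom weights, leaving out shallow libraries and leaving out each library. Genes were named from the members past the threshold in each contrast by absolute log2 change, up to 10 higher and 10 lower, from the 5 highest and 5 lowest levels and ER shares, and from a fixed set of paralogs, core subunits and assembly factors. The symbol rule that picks the members, and the lists, were set with earlier results of these data known.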

Additional observations from a re-analysis of the deposited data

Results flagged for a closer look

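The change with thapsigargin differed between genotypes in limma's test of the difference itself for 27 results, 19 of them higher and 8 lower than in WT. For S51A minus WT, 22.2, 9.09, 2.53 and 2.60% of members tested were called at 0.5, 1, 2 and 4 h. Of all genes tested, 24.9, 20.1, 18.4 and 14.3% were called. For cells labelled ATF4-/- minus WT, the members' share was 3.17% at 0.5 h, beside 3.76%, and 1.32% at 4 h, beside 4.41%. Without the shallow libraries, 4 of the 14 calls at 0.5 h in S51A minus WT remained. Each value below is the log2 change in the mutant cells minus that in WT.

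At 0.5 h, S51A minus WT was 0.98 for Ndufs8, 0.95 for Atp5f1, 0.91 for Atp5d, 0.91 for Ndufv2, 0.85 for Ndufab1 and 0.82 for Atp5c1. It was 0.76 for Uqcrfs1, 0.74 for Ndufb9, 0.70 for Ndufa10, 0.67 for Ndufs3 and 0.51 for Atp5a1. It was -0.78 for Sdhd, -0.97 for Uqcrh and -1.06 for Ndufb3.

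At 1 h, S51A minus WT was 0.97 for Atp5f1, 0.84 for Uqcrfs1, 0.71 for Atp5c1, 0.63 for Ndufb10, -0.62 for Ndufa8 and -0.66 for Sdhd. At 2 h it was -0.66 for Ndufaf1 and -0.72 for Ndufaf2, and at 4 h it was 1.18 for Cox7a2 and 0.92 for Atp5g3.

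Cells labelled ATF4-/- minus WT gave 1.31 for Uqcr10 and 0.87 for Atp5o at 0.5 h and -0.74 for Ndufaf1 at 4 h.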

How the results depend on the processing

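Counts below are members called by limma. With each library left out in turn, the change with thapsigargin gave 18 to 28 members in WT at 0.5 h, 15 to 20 at 1 h, 6 to 14 at 2 h and 5 to 7 at 4 h. In S51A it gave 0 at 0.5 and 1 h and 0 to 1 at 2 and 4 h, and in cells labelled ATF4-/- 16 to 21, 7 to 13, 4 to 9 and 7 to 14 at 0.5, 1, 2 and 4 h. Within fractions at 0.5 h it gave 9 to 13 in cytosol and 9 to 13 in ER of cells labelled ATF4-/-, 0 to 7 and 0 in S51A, and 1 to 18 and 21 to 26 in WT. At 4 h against 1 h it gave 1 to 3 in cells labelled ATF4-/-, 0 to 1 in S51A and 15 to 18 in WT. S51A minus WT gave 3 to 20, 2 to 7, 0 to 4 and 0 to 3 at the 4 times, and cells labelled ATF4-/- minus WT 0 to 8, 0, 0 and 0 to 1. Untreated cells against WT gave 24 to 30 in cells labelled ATF4-/- and 15 to 27 in S51A. ER against cytosol gave 9 to 11, 30 to 41 and 22 to 35 in untreated cells labelled ATF4-/-, S51A and WT. The shift between fractions gave 11 to 18, 0 to 12 and 10 to 18 at 0.5 h in that order, 1 to 4, 0 and 1 to 14 at 1 h, and 0, 0 and 1 to 3 at 2 h.

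The TMM-type scaling gave 1 member in S51A at 4 h, 21 in WT ER at 0.5 h, 11 in cytosol and 12 in ER of cells labelled ATF4-/- at 0.5 h, 4 for S51A minus WT at 4 h and 41 for ER against cytosol in untreated cells labelled ATF4-/-. For the shift between fractions it gave 2 in WT, 0 in S51A and 1 in cells labelled ATF4-/- at 0.5 h and 0 in cells labelled ATF4-/- at 1 h. By construction it moves the centre of each library, and at 0.5 h in WT 19 of the 26 calls were shared. Voom weights gave 2 in S51A at 2 h and 3 at 4 h, 22 in cells labelled ATF4-/- at 1 h, 2 in WT cytosol at 0.5 h, and 2 and 3 at 4 h against 1 h in S51A and cells labelled ATF4-/-. They gave 4 for S51A minus WT at 4 h, 1 for cells labelled ATF4-/- minus WT at 0.5 h, 28 for ER against cytosol in untreated cells labelled ATF4-/-, and 3 and 17 for the shift in WT at 1 h and S51A at 0.5 h. Without shallow libraries, which leaves fewer samples, S51A had 2 at 4 h, WT cytosol 1 at 0.5 h, and 4 h against 1 h 1 in S51A and 3 in cells labelled ATF4-/-. S51A minus WT then gave 4 at 0.5 h, 4 at 2 h and 5 at 4 h, cells labelled ATF4-/- minus WT 1 at 1 h, 1 at 2 h and 3 at 4 h, and the shift 3 in WT at 1 h, 2 in WT at 2 h and 14 in S51A at 0.5 h. In the same setting Ndufs7 and Uqcrq, higher in WT at 1 h, had changes of -0.019 and -0.026, and the cause was not tested.

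With no depth filter S51A minus WT gave 3 at 1 h and 1 at 2 h, cells labelled ATF4-/- minus WT 1 at 0.5 h, and mRNA and translational efficiency in S51A at 4 h 1 each. A pseudocount of 5 gave 8 for the shift in S51A at 0.5 h. Where no cause is named, it was not tested. In the recovered libraries, which hold the genes with a coding length, the members made up 3.44% of ER and 3.23% of cytosol levels in untreated cells labelled ATF4-/-, 3.02% and 3.82% in S51A, and 2.72% and 2.98% in WT, where structural subunits alone made up 2.69% of ER levels. By the authors' pooled totals, over all deposited genes, these shares were 2.82% and 2.46%, 2.66% and 3.02%, and 2.43% and 2.50% in the same order. No paired analysis was possible because the recovered libraries carry no replicate number. Depth limits the mRNA most, with a median of 2 reads per member and library in WT and 4 in S51A, beside 139 and 946.5 footprints.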
